A study of Astyanax mexicanus with 78 samples.

Results

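The genes described here are 80 genes of the Mexican tetra, Astyanax mexicanus, whose RNA was lower in Pachón cavefish than in surface fish in each of 5 tissues, namely brain, gut, heart, liver and muscle. They were chosen by measured values of these same libraries. Of 19076 genes counted, 4529 averaged at least 5 CPM (counts of a gene per 1000000 counts of its library) over the surface libraries of every tissue. For these eligible genes the mean log2(CPM + 1) of all surface libraries was subtracted from that of all cave libraries in each tissue. The least negative of the 5 differences is called the score below, and the 80 genes with the lowest scores are the members. The differences between cave and surface libraries are therefore given as a description of the members, without a test.

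A. mexicanus exists as an eyed form that lives in rivers and as blind populations that live in caves, among them the population of the Pachón cave. The forms still interbreed, and the cave populations differ from the river form in eyes, pigment, sleep, feeding and metabolism. Genes that are measured in brain, gut, heart, liver and muscle alike tend to serve functions that all cells share, such as respiration, protein folding and membrane traffic.

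RNA was measured in aged Pachón cavefish of 7 to 8 years, young Pachón cavefish of about 1 year, aged surface fish of 7 to 8 years and young surface fish of about 1 year, and age was the only treatment the labels name. Each group had 4 libraries per tissue, except that aged cave brain and aged surface gut had 3, for 78 libraries in all. Library totals ran from 6266669 to 20118504 counts. The labels do not say which libraries came from one fish, so p-values measure the spread between libraries. In bulk tissue a lower level in every cell and fewer cells that express a gene cannot be told apart.

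Young cave heart replicate 1 stood apart from its tissue. It had 78.7% of its counts on 124 genes that are abundant in liver (a median of 100 CPM or more there, 16-fold or more above any other tissue), against 0.0438% to 16.4% in the other 15 heart libraries and 33.9% to 78.6% in the liver libraries, and it was left out of the rule and of every value below. Of the other heart libraries, 3 cave and 3 surface libraries had more than 1% of their counts on these liver genes. Marker genes fixed for brain, gut, heart and muscle that could be matched by name were highest in their own tissue (1 gene for brain, 8 for gut, 1 for heart and 2 for muscle), while the 1 matched liver marker, apoa1a, was highest in gut. No marker of red blood cells could be matched by name and only 1 of white blood cells, so the share of blood cells was not measured.

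Gene names were known for 13 of the 80 members, and the other 67 are given by their Ensembl identifiers, with no role. The 13 named members serve several functions. Of these, 3 encode proteins of mitochondria, namely romo1 (a small inner membrane protein linked to reactive oxygen species), timm17a (a subunit of the inner membrane import channel) and chchd2 (a protein of the intermembrane space). In the endoplasmic reticulum, serpinh1b encodes the collagen chaperone Hsp47 and atl3 an atlastin, which fuses membrane tubules. In metabolism, akr1b1.1 belongs to the aldose reductase family, which reduces glucose and other aldehydes, decr2 encodes a peroxisomal reductase needed to break down polyunsaturated fatty acids, and pdk4 encodes a kinase that shuts off pyruvate dehydrogenase in fasting. DNAJA4 encodes a partner of Hsp70 chaperones, kcne4 an accessory subunit of potassium channels, taok1b a stress kinase and niban1b a protein of the Niban family, whose human counterpart is induced by cell stress. The remaining named member, si:ch1073-440b2.1, has no role known here.

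Most of the 80 differences were small. The scores ran from -2.45 to -0.24 with a median of -0.36, so that in the tissue where a member differed least its level on the CPM + 1 scale was 5.46-fold lower in cavefish for the first member, 1.29-fold lower at the median and 1.18-fold lower for the last. Scores of -1 or less were found for 13 members, and 56 members had scores above -0.5. The members just inside the threshold, ENSAMXG00000017886 and ENSAMXG00000042978, both had scores of -0.2414, and the genes just outside, ENSAMXG00000012852 and ENSAMXG00000042073, had scores of -0.241 and -0.239. Of all eligible genes, 422 (9.32%) had a negative score, that is, a lower mean in cavefish in all 5 tissues.

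The differences varied by tissue. The median difference of the members, cave minus surface in log2(CPM + 1), was -0.86 in heart, -0.82 in gut, -0.80 in liver, -0.58 in brain and -0.46 in muscle. Over all eligible genes the same median was -0.07 in heart, -0.22 in gut, -0.24 in liver, -0.01 in brain and 0.36 in muscle. Muscle was thus the tissue in which eligible genes as a whole lay higher in cavefish on this scale, and it was also the tissue that set the score of 40 of the 80 members. Brain set the score of 16 members, liver of 9, gut of 8 and heart of 7. Scaling of the libraries bears on this: with TMM library sizes in place of column sums 46 of the 80 members were chosen again, and with DESeq2 size factors 47, including 18 of the 20 lowest scores in both cases.

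**Figure D1:**
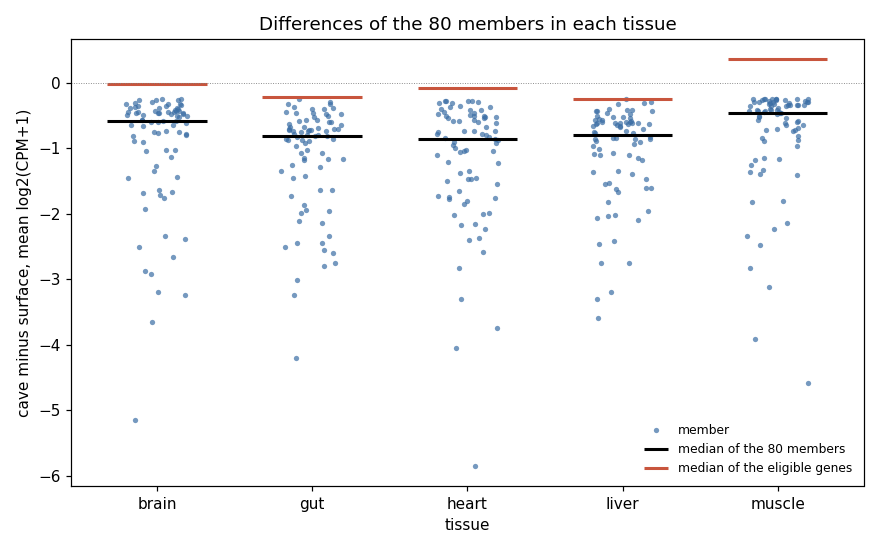
Each blue point is 1 of the 80 members, and the y axis gives its cave minus surface difference in mean log2(CPM + 1) in the tissue on the x axis. The black bars mark the members' medians (-0.86 in heart to -0.46 in muscle) and the red bars the medians of the 4529 eligible genes (0.36 in muscle), and most points lie close below 0 with a tail down to -5.84 in heart.

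The populations were separated library by library for more members in brain than in the other tissues. Every cave library lay below every surface library for 34 members in brain (3.86% of eligible genes), 16 in heart (0.729%), 14 in gut (1.13%), 5 in muscle (0.11%) and 4 in liver (0.199%). The cave and surface libraries did not overlap in any of the 5 tissues for 1 member, ENSAMXG00000030986 (0.0221% of eligible genes). In none of the 5 tissues did every cave library lie below every surface library for 36 members (94.9% of eligible genes). DESeq2 called 73 members lower in cavefish in brain, where 13.6% of all tested genes were called lower at an adjusted p under 0.05. The counts were 46 in gut (7.18% of all tested genes), 46 in heart (4.89%), 23 in liver (3.1%) and 53 in muscle (3.43%), and 13 members were called in all 5 tissues. The edgeR quasi-likelihood test called 197 of the members' 400 gene and tissue pairs, against 5.2% of all pairs. Since the members were selected on this contrast, nothing is read from these counts.

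The score pools both age classes, and members differed in how far each class carried it. Among aged fish alone 69 members were lower in cavefish in all 5 tissues (17.6% of eligible genes), among young fish alone 49 (4.06% of eligible genes), and in both classes 40 (1.70% of eligible genes). The exceptions lay mostly in young liver, where 17 members were at or above their surface level, and in young muscle, where 19 were. The members' median difference was -1.23 in aged liver against -0.41 in young liver, and -0.71 in aged muscle against -0.27 in young muscle. Eligible genes shifted the same way, with medians of -0.47 in aged liver against -0.02 in young liver and 0.16 in aged muscle against 0.55 in young muscle. The members' median in brain was -0.54 in aged fish and -0.64 in young fish, and in heart -0.85 in aged fish and -0.90 in young fish.

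Of the members, 3 were at no more than 1 CPM in most cave libraries, and all 3 were among the lowest scores. ENSAMXG00000030986, with the lowest score of all (-2.45), had at most 1.21 CPM in any of 38 cave libraries and was at 0 counts in 22 of them, against 1.02 to 14.1 CPM in the 39 surface libraries, where it was never at 0. In heart it had 0.523, 0, 0 and 0 CPM in aged cavefish and 0, 0 and 0 CPM in young cavefish, against 13.2, 12.6, 8.62 and 10.8 CPM in aged surface fish and 10.8, 7.79, 7.36 and 6.77 CPM in young surface fish. Its level in surface fish was low in every tissue. The cave guts all had some counts of it, between 0.183 and 0.938 CPM, and the highest cave values, 1.21 and 1.04 CPM, were in young muscle replicates 1 and 2. In a library of the lowest depth 3 counts are worth 0.479 CPM, so cave levels near or below that rest on few counts.

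ENSAMXG00000036641 was at no more than 1 CPM in 36 of the 38 cave libraries, and the exceptions were young cave liver replicates 3 and 4 with 3.13 and 1.43 CPM. In heart it had 0, 0.658, 0.241 and 0.137 CPM in aged cavefish and 0.445, 0.242 and 0.254 CPM in young cavefish. The surface hearts had 32.9, 25.0, 6.45 and 23.5 CPM when aged and 24.9, 54.0, 5.97 and 22.3 CPM when young. The low surface hearts were aged replicate 7 and young replicate 3, and aged replicate 7 was also the lowest aged surface library in gut (1.27 CPM) and liver (0.782 CPM), though not in brain or muscle. Young replicate 3 was the lowest young surface library in every tissue, with 4.88 CPM in brain, 2.86 CPM in gut, 2.78 CPM in liver and 1.35 CPM in muscle.

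ENSAMXG00000036866 was at no more than 1 CPM in 24 of the 38 cave libraries, with its highest cave values in gut. In brain it had 0, 0.228 and 0.117 CPM in aged cavefish and 0.119, 0.824, 0.448 and 0.638 CPM in young cavefish, against 32.6, 6.26, 69.2 and 31.3 CPM in aged surface fish and 124, 144, 126 and 16.1 CPM in young surface fish. In gut it had 23.5, 51.9, 55.6 and 0 CPM in aged cavefish and 23.1, 14.2, 32.8 and 16.8 CPM in young cavefish, against 103, 49.1 and 182 CPM in aged surface fish and 188, 74.4, 79.1 and 65.4 CPM in young surface fish. Aged cave replicate 8 was at 0 in gut, heart, liver and muscle. The gap between its tissues was the widest of all members, with differences from -5.84 in heart to -2.34 in gut.

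Among members with a name, akr1b1.1 had the lowest score (-2.33), with differences between -3.25 in gut and -2.33 in muscle. In brain it had 7.47, 7.98 and 5.38 CPM in aged cavefish and 9.87, 5.89, 9.57 and 8.78 CPM in young cavefish, against 45.6, 38.3, 47.4 and 37.0 CPM in aged surface fish and 37.0, 50.8, 39.2 and 68.1 CPM in young surface fish. In gut it had 99.8, 31.2, 39.1 and 22.1 CPM in aged cavefish and 26.7, 32.9, 77.0 and 53.1 CPM in young cavefish, against 903, 1676 and 656 CPM in aged surface fish and 145, 369, 127 and 276 CPM in young surface fish. The groups overlapped in liver alone, where young surface replicates 2 and 4 had 6.12 and 2.16 CPM and young cave replicates 3 and 4 had 9.87 and 11.4 CPM. The name akr1b1.1 is also given to a second identifier, ENSAMXG00000042395, which averaged 181 CPM in cave gut and 279.8 CPM in surface gut, 84.3 CPM in cave liver and 86.8 CPM in surface liver, and 1.00 CPM in cave brain and 1.05 CPM in surface brain. Reads shared between such copies could be counted for either of them, so the level of the member is uncertain to that extent.

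The collagen chaperone gene serpinh1b had a score of -1.04. In muscle it had 50.9, 43.0, 60.7 and 43.0 CPM in aged cavefish and 47.9, 26.5, 25.7 and 27.6 CPM in young cavefish, against 80.8, 235, 266 and 86.8 CPM in aged surface fish and 145, 69.7, 88.9 and 37.8 CPM in young surface fish. The aged groups did not overlap, whereas the young groups did. In gut every cave library, with 0.999 to 6.78 CPM, was below every surface library, with 10.9 to 34.6 CPM. Brain had the smallest gap, with 45.8, 42.6 and 45.9 CPM in aged cavefish and 36.0, 17.1, 11.2 and 18.2 CPM in young cavefish, against 91.3, 52.6, 52.8 and 66.2 CPM in aged surface fish and 109, 55.5, 33.1 and 35.5 CPM in young surface fish.

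**Figure D2:**
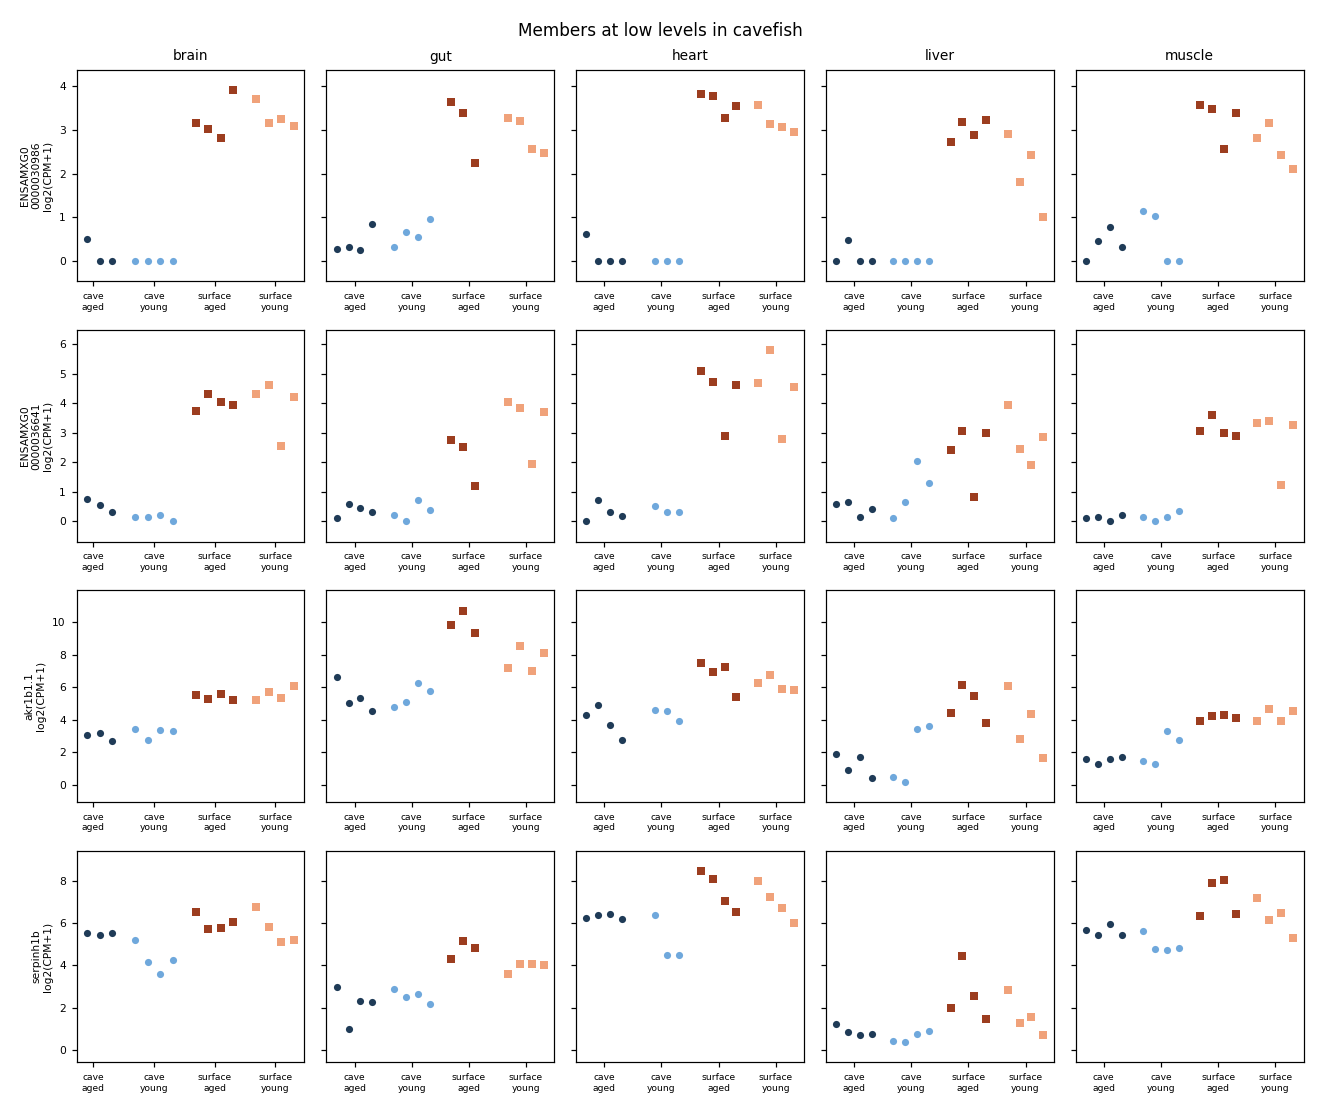
Level of ENSAMXG00000030986, ENSAMXG00000036641, akr1b1.1 and serpinh1b (rows) in every library of each tissue (columns), as log2(CPM + 1) on the y axis, with aged and young cave libraries as circles left of aged and young surface libraries as squares. The cave circles of ENSAMXG00000030986 lie at or near 0 in every tissue (at most 1.21 CPM), while serpinh1b overlaps between the populations in brain, heart, liver and muscle.

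The other named members had scores between -0.46 and -0.24. The fatty acid enzyme gene decr2 differed least in brain (-0.46) and most in heart (-1.98), where it had 2.61, 5.04, 5.14 and 1.23 CPM in aged cavefish and 2.33, 3.27 and 1.14 CPM in young cavefish, against 16.01, 13.2, 34.0 and 27.9 CPM in aged surface fish and 8.55, 7.52, 10.0 and 8.10 CPM in young surface fish. All 7 cave hearts were below all 8 surface hearts for decr2. For the mitochondrial genes the smallest and largest differences were -0.28 in muscle and -0.87 in gut for romo1, -0.25 in liver and -0.64 in muscle for timm17a, and -0.25 in muscle and -0.74 in gut for chchd2. The kinase gene pdk4 differed most in heart (-1.05) and least in gut (-0.25), taok1b most in liver (-0.86) and least in muscle (-0.25), and atl3 most in gut (-0.80) and least in muscle (-0.29). For kcne4 and DNAJA4 the ranges were -0.91 in liver to -0.33 in gut, and -0.92 in gut to -0.24 in muscle. These differences pool both ages. Among aged fish pdk4 was higher in cavefish in brain (0.22), gut (0.06) and muscle (0.24), and timm17a in heart (0.04). Among young fish timm17a (0.06), chchd2 (0.07) and DNAJA4 (0.26) were higher in liver, chchd2 (0.05) and DNAJA4 (0.02) in muscle, and kcne4 (0.07) in gut. The genes decr2, romo1, taok1b and atl3 were lower in cavefish in every tissue at both ages.

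Some members were close to absent in some cave libraries and present in others, and the same replicate numbers were low in all 5 tissues. For ENSAMXG00000036068 (score -2.42) young cave replicates 1, 2 and 4 had 1.31, 1.06 and 1.60 CPM in brain, against 24.5 CPM in young cave replicate 3. In gut the values were 0.164, 0.0719 and 0.417 CPM in young cave replicates 1, 2 and 4 and 143 CPM in replicate 3, and in muscle 0.0934, 0.174 and 0 CPM against 16.5 CPM. Young cave replicate 3 was thus the only library of its class above 2 CPM in each tissue. Aged cavefish had 50.05, 45.6 and 27.8 CPM in brain, against 97.5, 113, 3.99 and 172 CPM in aged surface fish, and young surface fish had 196, 206, 171 and 222 CPM. The low surface library was aged replicate 7 in every tissue, with 12.2 CPM in gut, 3.99 CPM in heart, 0.391 CPM in liver and 3.86 CPM in muscle.

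ENSAMXG00000038134 (score -2.03) was near 0 in young cave replicates 1, 2 and 3 and not in replicate 4. In muscle it had 105, 219, 110.4 and 136 CPM in aged cavefish and 1.03, 2.43, 0.978 and 172 CPM in young cavefish, against 293, 259.7, 293 and 346 CPM in aged surface fish and 203, 216, 268 and 292 CPM in young surface fish. In brain young cavefish had 0.476, 0.471, 1.05 and 58.9 CPM, and in gut 0, 0, 0 and 14.8 CPM. The same 3 numbers were at or below 2.43 CPM in every tissue, and all other cave libraries were at 12.5 CPM or more. Its difference from surface fish was larger among young fish, at -5.12 in young muscle against -1.12 in aged muscle. No age call was made for it in cavefish by DESeq2, which gave no adjusted p in gut and heart, and adjusted p of 0.646 in brain, 0.464 in liver and 0.679 in muscle.

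ENSAMXG00000039796 (score -1.22) showed a single number apart in surface fish. Aged surface replicate 7 had 291 CPM in brain, 27.5 CPM in gut, 2728 CPM in heart, 229 CPM in liver and 2463 CPM in muscle, while the other aged surface libraries had at most 126 CPM in brain, 6.99 CPM in gut, 129 CPM in heart, 12.7 CPM in liver and 309 CPM in muscle. Among the replicate numbers that had a library in every tissue, the lowest surface library had the same number in all 5 tissues for 4 of 80 members (5%) and for 0.861% of eligible genes, and the highest surface library for 2 members (2.5%) and 0.552% of eligible genes. In cavefish the lowest library had the same number throughout for 2 members and the highest for 3 (0.309% and 0.420% of eligible genes). Libraries of different tissues that share a number may thus not be independent measurements of these genes, and the labels do not state whether a number marks a fish. Without surface number 7 in any tissue, a choice made after seeing the data, 61 of the 80 members were chosen again, including the 20 with the lowest scores.

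**Figure D3:**
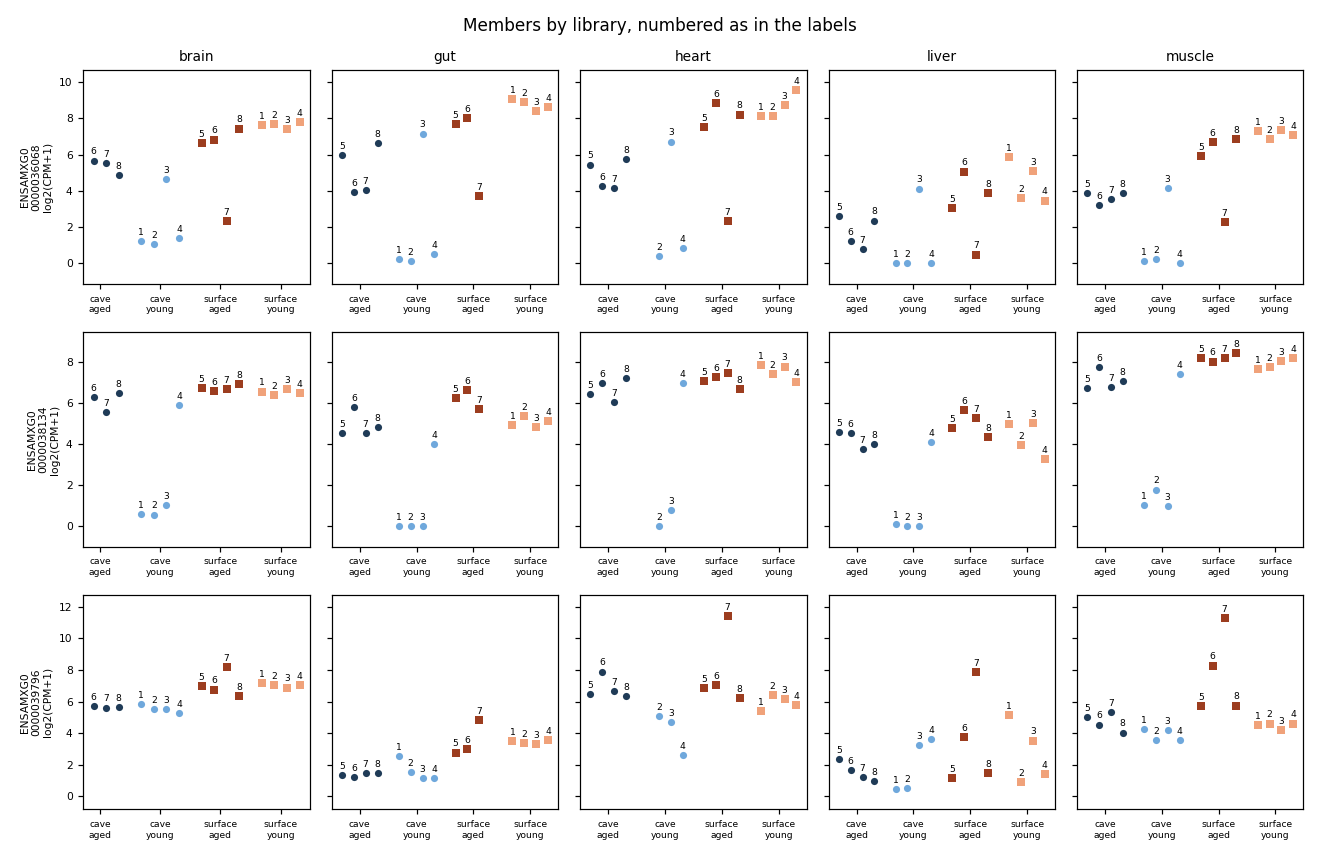
Level of ENSAMXG00000036068, ENSAMXG00000038134 and ENSAMXG00000039796 (rows) in each tissue (columns) as log2(CPM + 1), with the replicate number of the labels above each point, cave libraries (circles) left of surface libraries (squares) and aged left of young. Young cave numbers 1, 2 and 4 lie near 0 for the first gene and numbers 1, 2 and 3 for the second in every tissue, and aged surface number 7 lies lowest for the first and highest for the third.

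Another 3 members, ENSAMXG00000041310, ENSAMXG00000013836 and ENSAMXG00000029585, had their high values in the same surface libraries. In heart ENSAMXG00000029585 had 131, 214, 8.62 and 888 CPM in aged surface fish and 7.21, 12.7, 4.28 and 151 CPM in young surface fish, where ENSAMXG00000041310 had 156, 289, 20.7 and 431 CPM in aged and 12.05, 17.5, 7.06 and 149 CPM in young surface fish. In the same order ENSAMXG00000013836 had 95.8, 149, 10.6 and 464 CPM in aged and 2.88, 11.6, 6.66 and 65.7 CPM in young surface fish. Aged number 8 was the highest of the aged hearts and young number 4 of the young hearts for all 3 genes. Among surface muscles aged replicate 6 stood alone with 62.6, 89.5 and 42.5 CPM for ENSAMXG00000029585, ENSAMXG00000041310 and ENSAMXG00000013836, and the other surface muscles were at or below 5.32, 7.50 and 7.99 CPM. Young cave muscle replicate 1 had 23.8 CPM of ENSAMXG00000029585. In the same gene order, young cave minus surface differences were 1.31, -0.14 and 0.74 in muscle and 0.51, 0.03 and 0.53 in liver. Median surface liver levels were 1.06, 0.89 and 0.61 CPM. The 3 genes reached the minimum mean of 5 CPM there through aged surface liver replicate 6, with 809, 1338 and 664 counts. They reached it in muscle through aged surface muscle replicate 6, where median surface levels were 1.02, 3.73 and 1.21 CPM. Cave hearts, with 0.254 to 27.5 CPM over the 3 genes, overlapped with the young surface hearts.

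The comparison of aged with young fish within a population asks which members change over the adult life of that population, and its contrast was not the one that chose the members. It is not fully independent of the rule either. A gene high in 1 surface age class only, or low in 1 cave age class only, can enter through that class. DESeq2, the study's test, called 48 gene and tissue pairs of 388 tested higher in aged surface fish, against 3.28% of all tested pairs, and 12 lower, against 2.41%, at an adjusted p under 0.05. By edgeR the counts were 16 higher (0.683% of all pairs) and 3 lower (0.404%). The calls fell on 36 members by DESeq2, with 29 of them called higher and 7 called lower, and on 12 members by edgeR. The shares of all genes called in at least 1 tissue, or in all 5, are not given here. Counts of members over tissues thus have no such share beside them, and nothing is read from them.

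Gut held 23 of the 48 higher calls, beside 546 of 1010 among eligible genes and 932 of 2312 among all genes. DESeq2 called 23 of 80 members higher in aged surface gut, against 6.55% of all tested genes, and edgeR called 9 (1.66% of all tested genes). Among eligible genes DESeq2 called 546 of 4517 in gut (12.1%). The DESeq2 counts of members higher in aged surface fish were 10 of 74 in liver (3.01% of all tested genes), 10 of 77 in muscle (2.22%), 3 of 79 in brain (2.95%) and 2 of 78 in heart (1.67%). By edgeR they were 3 of 80 in liver (0.504%), 0 of 80 in muscle (0.0432%), 3 of 80 in brain (1.01%) and 1 of 80 in heart (0.0563%). Aged surface gut had only 3 libraries, and without aged replicate 6, young replicate 3 or young replicate 4 the gut count was 14, 14 and 13, while it was 29 without aged replicate 7. The muscle count was 5 without aged surface muscle replicate 6, the liver count was 6 without young surface liver replicate 2, and the heart count was 8 without young surface heart replicate 4. Shares of all genes with the same library left out are not given here, so these counts show only that the numbers depend on single libraries. The summed level of the 8 gut epithelium markers in surface gut ran from 4665 to 22542 CPM in aged fish and from 7524 to 23244 CPM in young fish, and that of 2 muscle markers from 24.4 to 43.3 CPM in aged fish and from 45.6 to 169 CPM in young fish. Their part in the gut counts was not tested.

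**Figure D4:**
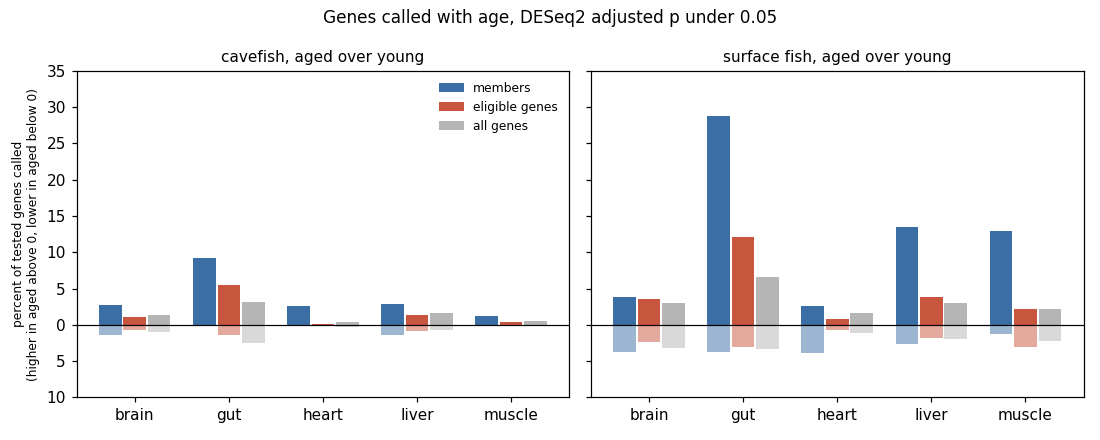
Bars give the percent of tested genes called by DESeq2 at an adjusted p under 0.05 with age, upward for higher and downward (paler) for lower in aged fish, for the members, the eligible genes and all genes, by tissue on the x axis, with cavefish on the left and surface fish on the right. The tallest bar is that of the members in surface gut (23 of 80), beside 12.1% of eligible genes and 6.55% of all genes.

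The 2 members ENSAMXG00000005619 and niban1b were called with age in surface fish in all 5 tissues by DESeq2. For ENSAMXG00000005619 brain had 4.37, 3.08 and 3.74 CPM in aged cavefish and 2.26, 1.77, 3.59 and 1.60 CPM in young cavefish, against 68.6, 52.4, 30.5 and 37.5 CPM in aged surface fish and 1.60, 2.52, 2.13 and 3.40 CPM in young surface fish. Gut had 1.73, 3.41, 2.83 and 3.92 CPM in aged cavefish and 2.70, 2.44, 2.10 and 3.13 CPM in young cavefish, against 114, 91.0 and 20.1 CPM in aged surface fish and 2.63, 6.55, 2.94 and 2.49 CPM in young surface fish. In all 5 tissues the aged surface libraries did not overlap with the young ones. Among young fish the cave minus surface difference of ENSAMXG00000005619 was -0.06 in brain and 0.92 in muscle, so it entered the list through aged surface fish. Its age changes are thus not independent of the rule and serve as a description. The log2 change in aged over young surface fish was 4.36 ± 0.29 in brain (SE, DESeq2 adjusted p = 1.23e-46, edgeR adjusted p = 7.31e-05). In the other tissues it was 4.42 in gut (edgeR adjusted p = 0.0260), 4.06 in heart (0.0251), 4.36 in liver (0.0207) and 3.63 in muscle (0.0812, past the threshold by DESeq2 alone).

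niban1b followed the same libraries. Among young fish its cave minus surface difference was -0.05 in brain and 0.50 in muscle, so it too entered through aged surface fish. Its age changes are likewise a description. Its brain values were 20.7, 13.6 and 13.3 CPM in aged cavefish and 17.7, 16.9, 19.7 and 21.4 CPM in young cavefish, against 78.3, 70.5, 39.3 and 49.0 CPM in aged surface fish and 17.1, 18.8, 20.1 and 22.3 CPM in young surface fish. In gut they were 8.00, 4.58, 4.94 and 7.73 CPM in aged cavefish and 7.94, 5.46, 10.1 and 7.71 CPM in young cavefish, against 115, 103 and 25.98 CPM in aged surface fish and 6.61, 13.7, 6.70 and 6.93 CPM in young surface fish. For both genes aged surface numbers 5 and 6 were above numbers 7 and 8 in every tissue that had them. DESeq2 called niban1b higher in aged surface fish in all 5 tissues, by 3.64 in liver, 3.32 in gut, 1.64 in muscle, 1.63 in brain and 1.49 in heart on the log2 scale, and edgeR called it in brain, gut and liver (adjusted p = 0.00259, 0.0326 and 0.0108). In heart the DESeq2 call was lost without aged replicate 6, young replicate 2 or young replicate 3, and young replicate 4 with 67.0 CPM came close to the aged values of 75.6 to 149 CPM.

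ENSAMXG00000030498 showed the opposite order of ages. Brain had 7.75, 11.7 and 9.36 CPM in aged cavefish and 10.2, 7.65, 6.58 and 8.94 CPM in young cavefish, against 8.45, 10.6, 7.29 and 6.69 CPM in aged surface fish and 118, 122, 122 and 115 CPM in young surface fish. Liver had 8.72, 11.2, 6.302 and 4.38 CPM in aged cavefish and 7.64, 9.83, 9.59 and 12.2 CPM in young cavefish, against 2.40, 18.2, 5.47 and 3.55 CPM in aged surface fish and 270.2, 111, 229.8 and 45.5 CPM in young surface fish. Only the young surface libraries were high in these tissues, and aged surface fish were at the level of cavefish. ENSAMXG00000030498 thus met the rule in brain and liver through young surface fish. In muscle its cave minus surface difference was -0.04 among aged fish and -0.82 among young fish. Its age changes in brain, liver and muscle are therefore a description. The log2 change in aged over young surface fish was -3.81 ± 0.14 in brain (SE, DESeq2 adjusted p = 1.43e-160, edgeR adjusted p = 1.35e-07), -4.62 in liver (edgeR adjusted p = 0.00923), -2.29 in gut (edgeR adjusted p = 0.0701) and -1.42 in muscle (edgeR adjusted p = 0.143). The muscle call was lost without any of 5 single libraries. Aged heart replicate 8 kept 273 CPM, beside 66.6, 75.8 and 31.1 CPM in the other aged surface hearts.

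ENSAMXG00000003656 was called lower in aged surface fish in brain, gut and liver, and in heart and muscle its fitted change was positive and not called (0.71 and 0.81 on the log2 scale, DESeq2 adjusted p = 0.873 and 0.633). Brain had 2.40, 4.22 and 5.73 CPM in aged cavefish and 2.62, 2.35, 2.99 and 1.12 CPM in young cavefish, against 8.56, 10.3, 7.29 and 6.55 CPM in aged surface fish and 28.4, 20.9, 14.3 and 30.3 CPM in young surface fish. Gut had 3.96, 3.08, 4.57 and 15.8 CPM in aged cavefish and 3.76, 1.87, 1.28 and 3.65 CPM in young cavefish, against 1.76, 7.82 and 8.86 CPM in aged surface fish and 35.9, 52.2, 151 and 113 CPM in young surface fish. The age change was -1.49 in brain (DESeq2 adjusted p = 3.56e-06, edgeR adjusted p = 0.0131), -3.72 in gut (edgeR adjusted p = 0.0575) and -2.46 in liver (edgeR adjusted p = 0.146). Among aged fish its cave minus surface difference in gut was 0.09, so the gut change is not independent of the rule. This gene was the only member whose median level in liver was at least 16 times that in heart (383 against 8.23 CPM). Among surface hearts the high values, 75.6 and 92.4 CPM, were in aged replicates 7 and 8, which had 5.03% and 16.4% of their counts on liver genes, and 56.6 CPM was in young replicate 1 with 0.302%. The part of liver RNA in its heart levels was not tested.

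**Figure D5:**
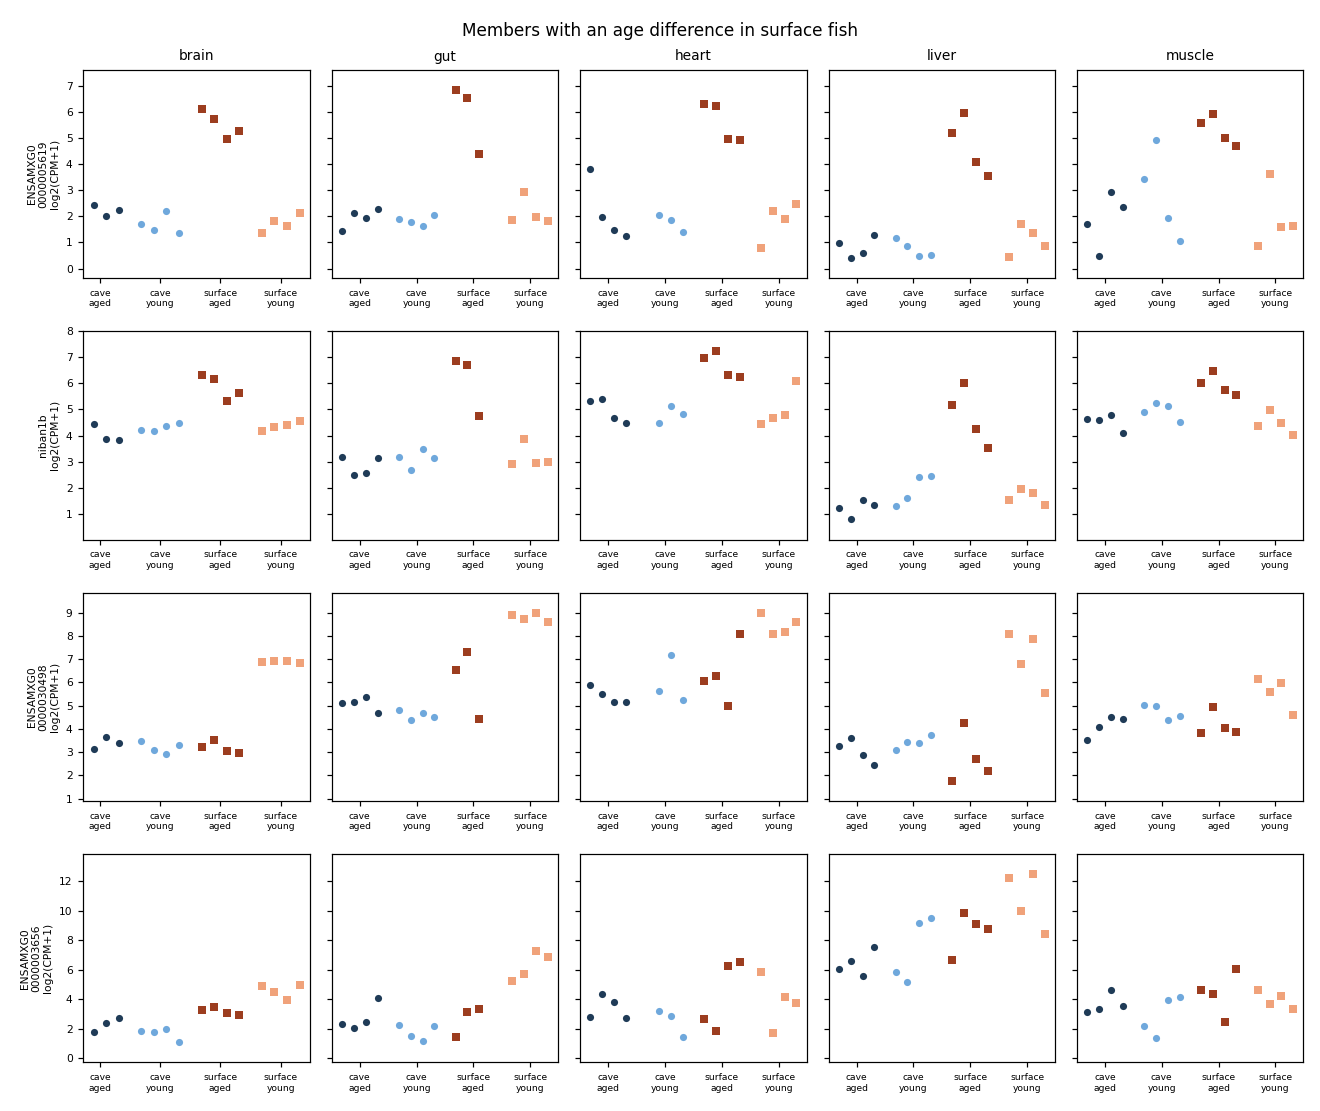
Level of ENSAMXG00000005619, niban1b, ENSAMXG00000030498 and ENSAMXG00000003656 (rows) in every library of each tissue (columns) as log2(CPM + 1), with cave libraries (circles) left of surface libraries (squares) and aged left of young. Aged surface squares stand above young surface squares for the first gene in all 5 tissues (30.5 to 68.6 CPM in brain). In muscle young cave replicate 2, at 29.6 CPM, lies above the lowest aged surface square of that gene. Young surface squares stand above the rest for the third gene in brain, gut and liver (115 to 122 CPM in brain).

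The remaining members called with age in surface fish by both tests all rose, by 1.28 to 2.35 on the log2 scale. In gut the log2 change was 1.92 for ENSAMXG00000029872, 1.86 for ENSAMXG00000012893, 1.64 for ENSAMXG00000003825, 1.63 for ENSAMXG00000001781, 1.42 for ENSAMXG00000037187 and 1.28 for ENSAMXG00000038134, with edgeR adjusted p from 0.0325 to 0.0485. The gut values of akr1b1.1 given above correspond to 2.35 ± 0.47 in aged over young surface fish (SE, DESeq2 adjusted p = 4.88e-05, edgeR adjusted p = 0.0466). Every aged surface gut exceeded every young one for this gene. ENSAMXG00000029872 was also called in liver (1.96, edgeR adjusted p = 0.0490), and ENSAMXG00000032571 in brain (1.41, edgeR adjusted p = 0.0319). Among young fish the cave minus surface difference in gut was 0.20 for ENSAMXG00000012893, -0.08 for ENSAMXG00000003825 and -0.10 for ENSAMXG00000001781. In brain it was -0.05 for ENSAMXG00000032571. These members met the rule there mostly through aged surface fish, so their changes there are a description. For the other members of this paragraph the difference among young fish lay between -4.08 and -0.56 in the called tissues.

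The 3 mitochondrial genes, named here for their roles after their values were seen, were called higher in aged surface gut by DESeq2 and missed the threshold by edgeR. In gut chchd2 had 43.5, 33.1, 29.3 and 32.9 CPM in aged cavefish and 25.9, 19.3, 17.6 and 23.1 CPM in young cavefish, against 91.4, 118 and 33.7 CPM in aged surface fish and 38.3, 42.8, 27.1 and 25.8 CPM in young surface fish. Its log2 change was 1.35 (DESeq2 adjusted p = 0.0116, edgeR adjusted p = 0.0772), that of timm17a 1.28 (0.00183 and 0.0543) and that of romo1 1.09 (0.00386 and 0.0676). The metabolic kinase gene pdk4 was lower in aged surface heart, with 395, 364, 398 and 299 CPM, against 1134, 1137, 1122 and 772 CPM in young surface heart (log2 change -1.73, DESeq2 adjusted p = 0.000157, edgeR adjusted p = 0.0790). In cave heart it had 117, 136, 283 and 431 CPM in aged fish and 462, 289.8 and 736 CPM in young fish, and these groups overlapped.

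In cavefish fewer members were called with age. DESeq2 called 14 of 376 gene and tissue pairs higher in aged cavefish, against 1.32% of all tested pairs, and 2 lower, against 0.929%. Of the 14, 7 were in gut, against 3.1% of all genes tested in gut. Among all genes gut held 403 of the 847 higher calls. In cave gut the summed level of the 2 muscle markers ran from 5.41 to 37.3 CPM in aged fish and from 30.1 to 213 CPM in young fish, and that of the gut markers from 2541 to 18759 CPM in aged fish and from 5966 to 16163 CPM in young fish. Their part in the cave gut calls was not tested. The edgeR test called 0 higher and 1 lower, against 0.0384% of all pairs in each direction. That call was ENSAMXG00000032275 in brain, which had 104, 100.1 and 98.6 CPM in aged cavefish, against 194, 157, 161 and 161 CPM in young cavefish, a log2 change of -0.72 (DESeq2 adjusted p = 7.01e-10, edgeR adjusted p = 0.0137) that was kept when any single library was left out. In surface brain the same gene had 212, 218, 197 and 214 CPM in aged fish, against 194, 138, 202 and 139 CPM in young fish. These surface groups overlapped. The cave minus surface difference of ENSAMXG00000032275 in brain was 0.02 among young fish and -1.05 among aged fish. It thus met the rule in brain through aged fish, and its cave age change there is a description.

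The other cave age calls rested on DESeq2 alone. DNAJA4 had 29.8, 153, 78.1 and 64.0 CPM in aged cave heart, against 25.7, 13.2 and 10.4 CPM in young cave heart, and 81.4, 39.8, 60.1 and 49.0 CPM in aged cave muscle, against 20.6, 17.1, 27.3 and 25.1 CPM in young cave muscle. In liver the order was the opposite, with 6.50, 1.94, 6.60 and 2.66 CPM in aged cavefish, against 58.4, 39.4, 11.96 and 14.0 CPM in young cavefish. The log2 changes were 2.36 in heart, 1.90 in muscle and -2.90 in liver (DESeq2 adjusted p = 0.00920, 0.0164 and 0.0224), and each was lost without any of 3 or 4 single libraries. In surface muscle it was also higher in aged fish (2.04, DESeq2 adjusted p = 0.00629, edgeR adjusted p = 0.122). The cave minus surface difference of DNAJA4 was -0.0048 in aged heart, 0.02 in young muscle and 0.26 in young liver. Its age changes in these tissues are thus not independent of the rule. The collagen chaperone gene serpinh1b rose by 1.13 in aged cave brain by DESeq2 (adjusted p = 0.00843, edgeR adjusted p = 0.162), and decr2 by 1.08 in aged cave gut (adjusted p = 0.0100, edgeR adjusted p = 0.132). The cave brain call of serpinh1b was lost without any of 5 single libraries and the gut call of decr2 without any of 3.

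The interaction of population and age compares the age change between the populations. It reuses values that the rule selected on, since several members entered the list through 1 age class. The calls below are thus a description and not independent of the choice of members. Among young fish ENSAMXG00000005619 differed between cave and surface fish by -0.06 in brain and -0.30 in gut, and niban1b by -0.05 and -0.07. In young muscle both genes were higher in cavefish, by 0.92 and 0.50, and niban1b was also higher in young liver, by 0.31. Young liver was at -0.34 for ENSAMXG00000005619, and young heart at -0.06 and -0.19 for these genes in the same order. ENSAMXG00000030498 differed among aged fish by 0.20 in brain and 0.32 in liver. DESeq2 called 9 of 393 gene and tissue pairs with a higher age change in cavefish, against 1.01% of all tested pairs, and 12 with a lower one, against 0.935%, on 10 members in all. By edgeR the counts were 3 (0.234% of all pairs) and 6 (0.164%), on 5 members. The 5 were the genes described above with age-bound surface levels and ENSAMXG00000032275. The difference of age changes, cave minus surface, was -3.64 in brain and -4.19 in gut for ENSAMXG00000005619 (edgeR adjusted p = 0.00133 and 0.00766), and -1.88 in brain, -3.51 in gut and -4.25 in liver for niban1b (0.00451, 0.0147 and 0.00786). It was 4.04 in brain and 4.598 in liver for ENSAMXG00000030498 (edgeR adjusted p = 4.59e-08 and 0.0138), 2.37 in brain for ENSAMXG00000003656 (0.0207) and -1.09 in brain for ENSAMXG00000032275 (0.00872). These 9 values all kept their DESeq2 call when any single library was left out.

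Over all members the typical age change varied by tissue and population. Members that entered the list through 1 age class are included, so the medians below are not independent of the rule. The median log2 change of the members in aged over young surface fish was 0.62 in gut, beside 0.11 for eligible genes, 0.42 in liver beside 0.04, 0.15 in muscle beside -0.05, 0.10 in brain beside 0.06 and -0.17 in heart beside -0.10. In cavefish it was 0.36 in gut beside 0.13, 0.21 in muscle beside -0.03, 0.16 in heart beside 0.02, 0.03 in brain beside -0.01 and 0.04 in liver beside -0.01. The sign in cave muscle and cave liver depended on scaling: on the log2(CPM + 1) scale the median was -0.29 in muscle and -0.39 in liver by column sums, 0.16 and 0.01 by TMM, and 0.20 and 0.01 by DESeq2 size factors. On that scale by column sums the change was 0.39 in surface gut and 0.41 in surface liver. The SD of the members' median between libraries of an age class (the larger of both classes) was 0.41 in gut and 0.64 in liver. By column sums neither change exceeded it. With TMM and DESeq2 size factors the change was 0.50 and 0.49 in surface gut, and 0.35 and 0.36 in surface liver. In cavefish the change by column sums was 0.25 in gut beside an SD of 0.18, and -0.39 in liver beside 0.64. This SD describes single libraries and is not the error of a difference between groups.

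None of the members was on the 11 lists of genes for clock and light response, DNA repair, antigen presentation, interferon response, antioxidants, oxidative phosphorylation, chaperones, proteasome, sterol synthesis, insulin and mTOR signalling or splicing, but only 66 of the 393 listed names could be matched to an identifier. The chaperone list did not hold serpinh1b or DNAJA4, and the 67 members without a name could not be matched. Members with these functions are thus not excluded. Of these 66 genes, DESeq2 called 24 lower and 5 higher in cave brain, 2 lower and 1 higher in gut, 1 lower and 1 higher in heart, 0 lower and 3 higher in liver, and 0 lower and 1 higher in muscle, and none was lower in all 5 tissues. In brain 13.6% of all tested genes were called lower and 12.7% higher. The lower brain calls included 9 of 13 matched genes of oxidative phosphorylation, 6 of 13 of the antioxidant list and 5 of 11 chaperones, and of 11 matched genes of insulin and mTOR signalling 3 were called higher and 0 lower. These lists are singled out after their values were seen.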

How the data were processed

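RNA of brain, gut, heart, liver and muscle was sequenced from poly-A libraries. The deposited values are raw counts per gene, which the authors made by aligning reads with STAR to the surface-fish assembly and its Ensembl annotation. Reads of both populations were thus mapped to a surface-fish genome, and the effect on counts in cavefish was not tested. Strand and multiple-mapping settings were not given in the sources used here. Library totals were 6266669 to 20118504 counts, and in the shallowest library 3 counts equal 0.479 CPM.

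Groups follow the sample characteristics. Aged cave heart libraries carry a conflicting description (young), and young cave liver replicate 4 is named old in the count table header but labelled young. Young cave heart replicate 1 was left out. No pair of replicates agreed within sampling noise.

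The members and gene lists were chosen with earlier results of these data known. CPM were computed from column sums. DESeq2 (version 1.42.0, R 4.3.3) tested cave against surface fish, aged against young fish within each population, and their interaction, in each tissue, with Benjamini-Hochberg adjusted p under 0.05 over all genes. The edgeR quasi-likelihood test (version 4.0.16, TMM, filterByExpr) was the alternative. On simulated counts DESeq2 called more unchanged genes than its threshold allows, so edgeR values stand beside its calls. The simulation used the spread that edgeR estimated for each gene and added no outlying libraries, so it does not rank the tests on these data. Each library was left out in turn, and scalings, filters and a replicate block were tried. Genes were named if among the 20 lowest scores, next to the threshold, called with age (at most 12 per population) or for the interaction (at most 10), near 0 in cavefish or among the 5 widest ranges over tissues. Members with a gene name outside this rule were named after their values were seen. Near-identical copies and genome positions were not analysed here. Figures used matplotlib 3.10.9.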

Additional observations from a re-analysis of the deposited data

Results flagged for a closer look

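Of 185 groups of 4 libraries checked over 10 members and the members' median, 26 held a library far from the others. A chance rate of about 1 in 20 would hold for independent groups with a bell-shaped spread. Here the groups share libraries, the members were chosen from these data and several values lie near 0. No excess over chance is read from the count. Libraries of young cave number 3 stood apart for ENSAMXG00000036068, with 24.5 CPM in brain, 143 CPM in gut, 16.4 CPM in liver and 16.5 CPM in muscle. Libraries of young cave number 4 stood apart for ENSAMXG00000038134, with 58.9 CPM in brain, 14.8 CPM in gut, 16.2 CPM in liver and 172 CPM in muscle, and aged cave gut replicate 6 had 55.0 CPM. For ENSAMXG00000030986 the single cave libraries were aged gut replicate 8 (0.807 CPM), aged heart replicate 5 (0.523 CPM) and aged liver replicate 6 (0.404 CPM). For ENSAMXG00000036866 they were young cave liver replicate 4 (6.39 CPM), young surface brain replicate 4 (16.1 CPM) and young surface gut replicate 1 (188 CPM). ENSAMXG00000005619 had 13.1 CPM in aged cave heart replicate 5, 6.55 CPM in young surface gut replicate 2 and 11.3 CPM in young surface muscle replicate 2. For serpinh1b they were young cave muscle replicate 1 (47.9 CPM), aged surface liver replicate 6 (20.6 CPM) and young surface gut replicate 1 (10.9 CPM). For niban1b they were young surface gut replicate 2 (13.7 CPM) and young surface heart replicate 4 (67.0 CPM). ENSAMXG00000036641 had 1.35 CPM in young surface muscle replicate 3, and ENSAMXG00000030498 had 30.0 CPM in aged surface muscle replicate 6. The members' median log2(CPM + 1) was 4.52 in young cave muscle replicate 2, above the other young cave muscles.

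The age change differed between cave and surface fish, by the DESeq2 interaction term, in 21 gene and tissue pairs, given here as cave minus surface on the log2 scale. The term is not independent of the choice of members, which used both age classes. For ENSAMXG00000030498 the difference was 4.04 in brain, 2.93 in gut and 4.598 in liver. For ENSAMXG00000005619 it was -4.69 in muscle, -4.19 in gut, -4.08 in liver, -3.64 in brain and -3.12 in heart, and for niban1b -1.88 in brain, -3.51 in gut and -4.25 in liver. It was 2.37 in brain and 5.11 in gut for ENSAMXG00000003656, and -1.09 in brain for ENSAMXG00000032275. ENSAMXG00000012893 had -1.73 in gut and -1.74 in heart, ENSAMXG00000015578 had 1.18 in brain, and ENSAMXG00000040325 had 4.84 in gut and 4.49 in liver. Aged cave replicate 8 stood high for ENSAMXG00000040325. It had 166 CPM in gut, against at most 11.2 CPM in the other aged cave guts. In liver it had 35707 counts, against at most 7634 in the other aged cave livers. Among aged fish the cave minus surface difference of this gene was -0.31 in heart and above 0 in the other tissues, up to 1.20 in gut. ENSAMXG00000002242 had 0.93 in heart. ENSAMXG00000029585 had -7.64 in muscle, a call lost without aged surface muscle replicate 6.

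Young cave heart replicate 1, used in no comparison, had 78.7% of its counts on liver genes. In it 77 of the 80 members were below their mean in young surface heart, as were 94.1% of eligible genes.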

How the results depend on the processing

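The list depended on its settings: of 80 members, 46 were chosen again with TMM library sizes, 47 with DESeq2 size factors, 32 with a minimum mean of 1 CPM, 49 with 10 CPM, 53 with medians in place of means, 36 from young libraries and 42 from aged libraries alone. With 1 library left out 64 to 80 were chosen again, the fewest without aged surface muscle replicate 6, and 29 were chosen whichever library was left out. By edgeR the members' calls were 16 higher and 3 lower with age in surface fish, 0 higher and 1 lower in cavefish, and 3 higher and 6 lower for the interaction. With 1 library left out the DESeq2 counts were 230 to 247 lower in cavefish, 38 to 54 higher and 11 to 16 lower with age in surface fish, 9 to 20 higher and 1 to 3 lower with age in cavefish, and 8 to 13 higher and 11 to 16 lower for the interaction. Shares of all genes under the same omissions are not given here, and nothing is read from these counts. With young cave heart replicate 1 kept in, the log2 age change of DNAJA4 in cave heart was -0.11 and the interaction of ENSAMXG00000002242 in heart was -0.0803. The members' median age change in cave muscle was 0.16 with TMM and 0.20 with DESeq2 size factors, against -0.29 with column sums. Of 67 single calls named, 40 were kept whichever library was left out and 29 were also made by edgeR.

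With the replicate number as a block the members' DESeq2 counts were 242 lower in cavefish, 25 higher for the interaction and 13 lower for it. Shares of all genes with the block are not given here, and nothing is read from these counts. The numbers showed no steady pairing of cave with surface libraries within a tissue. A cave and a surface library of the same number and tissue had correlations of -0.40 to 0.87 in their deviations, with 12 of 37 pairs over 0.1. That check did not compare libraries of different tissues. Depth limits the levels nearest 0, where 3 counts are worth up to 0.479 CPM.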
